A study of Homo sapiens with 8 samples.

Results

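The ZNF genes are the protein-coding genes named ZNF with a number and, in some, a final letter. Most of them encode C2H2 zinc finger proteins, which bind DNA through arrays of small zinc-holding loops. The RefSeq annotation of GRCh38 held 509 such genes among 20050 protein-coding genes, and they were chosen by symbol alone. A peak is a stretch of RNA at which an antibody against N4-acetylcytidine (ac4C) enriched reads. Of the 509 genes, 66 had a peak in NAT10-knockout SiHa cells and 235 had one in SiHa cells. A peak in either list was found for 250 ZNF genes, of 6775 protein-coding genes with one.

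Many ZNF proteins carry a KRAB domain, which recruits the corepressor TRIM28 and, through it, the histone methyltransferase SETDB1 to silence transposable elements and other loci. The family grew by tandem duplication, and much of it lies in clusters on chromosome 19. The array of zinc fingers is usually encoded by one long exon at the end of the gene. NAT10 is the enzyme that writes ac4C on RNA, and SiHa is a line of human cervical squamous carcinoma cells.

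The study captured ac4C-bearing RNA with an antibody and sequenced it beside input RNA. Antibody-captured RNA of NAT10-knockout SiHa cells, input RNA of these cells, antibody-captured RNA of SiHa cells and input RNA of SiHa cells were each represented by 2 libraries. The labels give no treatment, time or number of clones for the knockout, and all groups share the SiHa background. The deposited result is 1 peak list for each population, so no value has a replicate error and no comparison has a test.

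The list whose name carries an added K was read as that of the knockout, which no label states in words. It holds 4557 peaks on assembled chromosomes, against 12924 in the SiHa list. NAT10 itself had no knockout peak and 1 SiHa peak (p 5e-37), and a peak list gives no level of its transcript. Depth and expression are unknown, so a lower RNA level and less ac4C per transcript cannot be told apart for any gene below. Each p and fold is the authors' own, and the reference of the folds is not stated. Some settings below put the same cutoff on p, 1e-08, in both lists. As depth is unknown, this cutoff may not mean the same in each list. Intervals are 95% exact binomial (Clopper-Pearson) and cover counting only. Reads from near-identical ZNF neighbours can be assigned to the wrong copy, so single genes of the clusters are less certain than the rest. Of 5 squamous epithelial genes, 1 had a knockout peak (KRT19) and 3 had a SiHa peak (KRT5, KRT13 and KRT19), while KRT17 and TP63 had none. All 4 genes looked up as markers of other cell types (ALB, HBB, PTPRC and PECAM1) had a knockout peak, and ALB and HBB had a SiHa peak. HBB was listed at a p of 0 in both lists, with a knockout fold of 1290, and the part of such signal in the ZNF peaks was not tested.

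The letters under 1 whole peak and at the start of 4 transcripts were read from RefSeq promoter windows of GRCh38.p14. They are shown because ac4C sits on cytidine, and the capitals mark every cytidine of the transcribed strand. These genes were chosen for the reach of the windows, after their values had been seen. ZNF469, whose loss causes brittle cornea syndrome, had 4 SiHa peaks and no knockout peak. The first of these covers chr16:88430380-88430560 on the plus strand, with a deposited p of 4.2e-08, and its letters come from the window of a neighbouring entry.
ZNF469 SiHa peak: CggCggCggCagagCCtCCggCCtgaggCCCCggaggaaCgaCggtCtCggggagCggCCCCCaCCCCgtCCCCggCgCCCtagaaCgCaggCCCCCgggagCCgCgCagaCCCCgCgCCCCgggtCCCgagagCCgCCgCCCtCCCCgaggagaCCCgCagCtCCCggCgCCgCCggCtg
In this peak 84 of 181 bases (46.4%) are C, and 82.3% are G or C. The motif CNNCNNCNN, in which a cytidine opens 3 successive triplets, matches 21 times on the transcribed strand when overlapping matches are counted, and the longest such run has 9 triplets. The motif is common: 86.4% of 27305 promoter windows cut to their first 181 bases hold it on the gene's strand and 96.5% on either strand, with a median of 4 matches. These bases lie before the annotated transcript start, so they are DNA of another kind than a stretch of RNA under a peak. As high a share of C was found in 3.03% of these windows, and as many matches in 3.28%. A match is a description of letters and not of a modified site.

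The other 4 stretches are the first 30 bases that a peak shares with the annotated transcript in that table. ZNF841 had a knockout peak over its start at chr19:52095736-52095765 (minus strand). SiHa peaks covered transcript starts of ZNF687, a partner of the chromatin reader ZMYND8, at chr1:151282299-151282328 and of ZNF143, an activator of small nuclear RNA genes, at chr11:9461012-9461041, both on the plus strand. The ZNF687 start in that table lies inside the gene span, which begins at base 151281522, so it is not the 5′ end used for places below. In ZNF740 the SiHa peak began at transcribed base 9, at chr12:53180730-53180759 on the plus strand.
ZNF841 knockout peak: aCaCCCggaagCagatCgCgCtggggaaag
ZNF687 SiHa peak: aggaagtagCggCggCCgCggggagggCgg
ZNF143 SiHa peak: aCggCtgtttCCtgtCCtggtgCatggtgg
ZNF740 SiHa peak: gCCtCggtCCCggtgggggCagCCgCggCg
Cytidine made up 26.7% of the ZNF841 stretch, 20.0% of the ZNF687 stretch, 23.3% of the ZNF143 stretch and 36.7% of the ZNF740 stretch. The letters of all other ZNF peaks were not analysed here.

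ZNF genes carried peaks about as often as other genes in the knockout list and more often in the SiHa list. A knockout peak was present in 66 of 509 ZNF genes (13.0%, interval 10.2 to 16.2%), beside 14.2% of all protein-coding genes. A SiHa peak was present in 235 (46.2%, interval 41.8 to 50.6%), beside 27.7% of all protein-coding genes. Per ZNF gene with a knockout peak there were thus 3.56 with a SiHa peak, and over all protein-coding genes 1.95. Median gene spans were close, at 23605 bases for ZNF genes and 24093 for all protein-coding genes, but among genes with a SiHa peak they were 23351 and 36445 bases. The RNA level of the genes was not measured here, and its part in these shares was not tested.

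The higher share of ZNF genes in the SiHa list remained, by a smaller margin, when the lists were shortened. With only peaks below a deposited p of 1e-08, 20 ZNF genes (3.93%) had a knockout peak and 119 (23.4%) a SiHa peak, while the shares of all protein-coding genes were 5.90% and 15.9%. When the SiHa list was shortened to its strongest peaks, equal in number to the knockout list, 96 ZNF genes (18.9%) and 13.6% of all protein-coding genes had a SiHa peak. In both settings the SiHa share of the ZNF genes was the higher one.

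**Figure D1:**
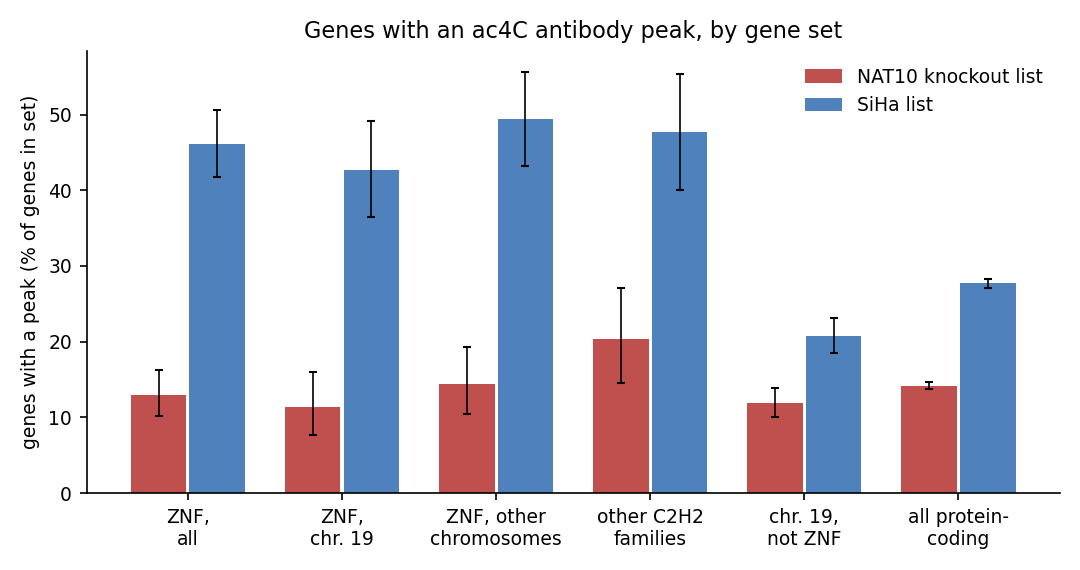
Share of genes with at least 1 peak (y axis, % of genes in the set) in the NAT10 knockout list (red, left) and the SiHa list (blue, right) for 6 gene sets on the x axis. Bars are shares and whiskers are 95% exact intervals for counting; the SiHa bars of the ZNF sets and of the other C2H2 families stand above 40%, and that of all protein-coding genes at 27.7%.

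By class, 15 ZNF genes had peaks in the knockout list alone, 51 in both lists and 184 in the SiHa list alone. The 15 make up 22.7% of the ZNF genes with a knockout peak, beside 42.8% over protein-coding genes. The 184 make up 78.3% of those with a SiHa peak (interval 72.5 to 83.4%), beside 70.7% over protein-coding genes, and the 51 make up 21.7%, beside 29.3%. A gene with no listed peak is not shown to lack ac4C. Of the 259 ZNF genes without a named peak, 35 were touched by identifiers that could not be named. These were 6.88% of all ZNF genes, beside 5.54% over all protein-coding genes. The other 224 had no peak touching them on their strand, or on either strand where the reference gave none (44.0%, beside 60.7%).

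The peaks that ZNF genes did carry were weaker by the deposited p than those of all protein-coding genes. The median −log10 p was 5.09 for ZNF knockout peaks and 4.96 for ZNF SiHa peaks, beside 5.55 and 6.53 over the knockout and SiHa peaks of protein-coding genes. A p below 1e-08 was listed for 20 of 76 knockout peaks (26.3%, beside 37.5%) and for 163 of 446 SiHa peaks (36.5%, beside 44.8%). The median fold of the 76 knockout peaks was 15.4, beside 12.8. Of these 76 folds, 51 (67.1%, beside 58.3%) were whole multiples of 1 common step of 2.56, to the 3 digits deposited. The deposited false discovery rate was above 0.05 for 22 of the 76 (28.9%, beside 23.03%).

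ZNF genes that had SiHa peaks often had several in the list as deposited. The 446 SiHa peaks gave 1.90 per gene with a peak, and the 76 knockout peaks gave 1.15; over protein-coding genes there were 1.83 SiHa and 1.24 knockout peaks per gene. At least 2 peaks were found in 10 of 66 genes (15.2%, beside 19.1%) in the knockout list and in 123 of 235 genes (52.3%, beside 43.5%) in the SiHa list. With a deposited p below 1e-08 these shares were 0% in the knockout list and 26.1% in the SiHa list, and with the shortened SiHa list its share was 21.9%. No share over all protein-coding genes was set beside these, so whether the difference from other genes stays was not tested. No ZNF gene had more than 2 knockout peaks. In SiHa cells 23 genes (9.79%, beside 9.18%) had at least 4. When SiHa peaks that overlap each other are merged, 441 places remain, and ZNF623 goes to 2 places, against 4 deposited peaks. In the 123 genes with several SiHa peaks, the outermost peak centres were a median of 1746 bases apart, and in 67 of them (54.5%) within 2000 bases.

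**Figure D2:**
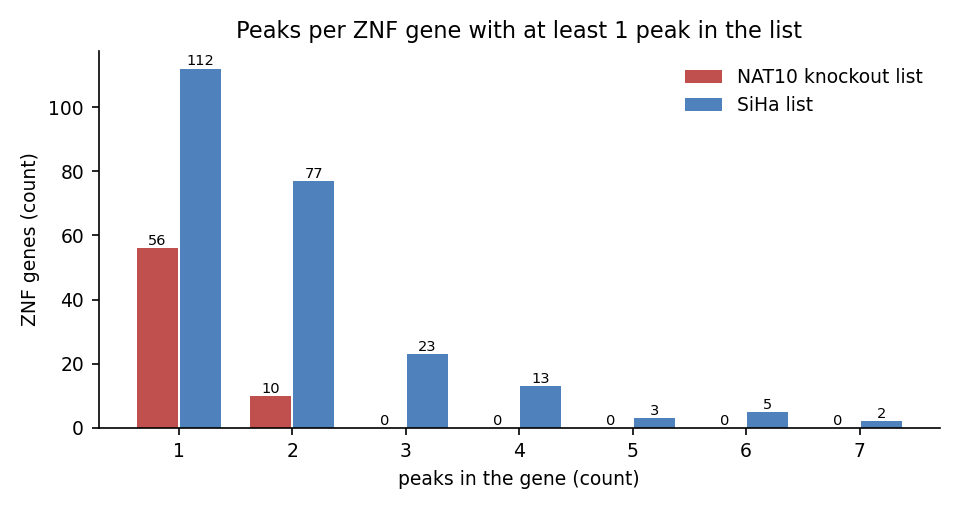
Number of ZNF genes (y axis, count) by the number of peaks in the gene (x axis, count) in the NAT10 knockout list (red, left) and the SiHa list (blue, right). Single peaks are most frequent in both lists, with 56 knockout and 112 SiHa genes, and the SiHa bars run on to 7 peaks.

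Among the 10 genes with most SiHa peaks, 6 had no knockout peak, beside 78.3% of all ZNF genes with a SiHa peak. ZNF608 and ZNF618 had 7 SiHa peaks each. In ZNF608 (chr5:124636915-124748824, minus strand) 5 of them lay from 89.2 to 99.6% of the way along the gene, the strongest with a p of 1e-126, and the other 2 lay at 3.51 and 4.10%; no knockout peak was listed. In ZNF618 (chr9:113876309-114056593) all 7 lay between 95.8 and 98.8%, with p from 0.0012 to 1.3e-84. The last of these was overlapped by the single knockout peak of the gene, at a fold of 5.13. The peaks of these genes thus gathered at the 3′ end, with a second group at the 5′ end in ZNF608 alone of the pair.

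ZNF445, a KRAB protein needed to keep genomic imprints, had 6 SiHa peaks and no knockout peak. Of these, 5 lay between 63.3 and 69.2% of its span, and the strongest had a p of 1e-268. ZNF609, which works with the Integrator complex and the cohesin loader NIPBL, had 6 SiHa peaks, of which 1 with a p of 1e-164 lay at 17.7% and 5 lay between 94.8 and 98.1%. Its only knockout peak, at a fold of 7.69, overlapped the first of those 5. ZNF451, a SUMO ligase, had 4 of 6 SiHa peaks between 13.9 and 16.1% of its span, among them the longest ZNF peak of either list at 1020 bases. Its single knockout peak lay in the other group and began at the same base as a SiHa peak with a p of 1e-106. In each of ZNF609 and ZNF451 the knockout peak fell within 1 group of SiHa peaks and the other group had none.

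ZNF318 and ZNF646 had 6 SiHa peaks each. Those of ZNF318 were spread from 36.01 to 96.8% of the span, with no knockout peak. The 6 of ZNF646 ran from 36.2 to 71.9%, and the last shared 31 bases with a knockout peak at a fold of 15.4. ZNF281, ZNF148 and ZNF37A had 5 SiHa peaks each and no knockout peak. The ZNF281 peaks held 2064 bases of a gene that spans only 5086, from 17.2 to 68.5% of its length.

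The lowest SiHa p among the remaining genes was 0, listed for ZNF146, ZNF189, ZNF518A, ZNF623 and ZNF830. ZNF146 had 2 SiHa peaks of 598 and 896 bases and no knockout peak. ZNF189 had 3 SiHa peaks, of which the middle one was listed at 0, and no knockout peak. ZNF131 followed with a single SiHa peak of p 1e-286, ZNF598, an E3 ubiquitin ligase that acts on collided ribosomes, with one of p 1e-186, and ZNF839 with a lowest p of 1e-184. Neither ZNF131 nor ZNF598 nor ZNF839 had a knockout peak. ZNF3 had 2 SiHa peaks (lowest p 1e-131) and ZNF33A had 3 (lowest p 2.5e-93), again with no knockout peak. Of these 10 genes, ZNF518A and ZNF830 alone had a knockout peak, at folds of 20.5 and 2.73. Among all ZNF genes with a SiHa peak, 21.7% had a knockout peak.

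The highest knockout folds of ZNF genes sat in genes of both classes. Folds on the common step described above were kept in this ranking. ZNF44 had the highest, a fold of 167 (p 3.2e-41) at chr19:12272157-12272336, and its SiHa peak (p 2e-12) lay at chr19:12273829-12274038 without overlap. ZNF200 had a fold of 118 at the very bases of a SiHa peak whose p was 0.0066. ZNF726 had a fold of 115 and no SiHa peak. ZNF83 followed with a fold of 94.9 and ZNF24, a SCAN domain protein, with 76.4, and both peaks were overlapped by a SiHa peak. ZNF397 had a fold of 53.8 with no SiHa peak, ZNF550 had 51.3, ZNF740 had 48.7, ZNF84 had 43.6 and ZNF398 had 37.6. Thus 8 of these 10 genes also had a SiHa peak. Among all genes with a knockout peak, 77.3% of the ZNF genes and 57.2% of the protein-coding genes had one.

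At most 2 knockout peaks were found in a gene, and 6 such genes were followed. In ZNF736 and ZNF740, 1 of the 2 overlapped a SiHa peak, by 180 bases and by 1 base. In ZNF550 the nearest SiHa peak was 59 bases from a knockout peak. ZNF207, also called BuGZ, which serves kinetochore attachment, had knockout peaks at 34.2 and 93.1% of its span and SiHa peaks at 61.8 and 75.7%. ZNF639 had knockout peaks at 1.21 and 43.4% and its 3 SiHa peaks between 65.1 and 70.0%. ZNF644, a partner of the methyltransferases G9a and GLP, had knockout peaks at 76.2 and 99.7% and a SiHa peak at 98.9%. In ZNF207, ZNF639 and ZNF644 no knockout peak overlapped a SiHa peak.

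The 15 genes found in the knockout list alone carried 17 peaks with a median fold of 20.5. They were ZNF221, ZNF266, ZNF283, ZNF397, ZNF419, ZNF532, ZNF559, ZNF628, ZNF669, ZNF726, ZNF74, ZNF75D, ZNF783, ZNF799 and ZNF831, named here because the class is small. ZNF419 and ZNF74 had 2 peaks each. The false discovery rate was above 0.05 for 5 of the 17 peaks, and 12 of the 17 folds were multiples of the common step. On chromosome 19 lay 8 of the 15 genes.

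Where a ZNF gene had peaks in both lists, they shared a place in under 50% of these genes. An overlap of at least 1 base on the same strand was found in 22 of the 51 genes (43.1%, beside 39.5% of protein-coding genes with peaks in both lists). Counted by peak, 22 of 76 knockout peaks (28.9%, interval 19.1 to 40.5%, beside 20.5%) and 23 of 446 SiHa peaks (5.16%, interval 3.30 to 7.64%, beside 7.06%) were overlapped. These form 23 pairs, of which 12 shared at least 50% of both peaks and 2, in ZNF200 and ZNF226, had the same first and last base. The overlapped SiHa peaks had a median −log10 p of 8.72 and the other SiHa peaks of ZNF genes 4.72. In the other 29 genes the nearest peaks were a median of 1587 bases apart, from 59 bases in ZNF550 to 6198 in ZNF468, and within 1000 bases in 8.

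The genes with a shared place were of varied roles. In ZNF830, whose annotated span is only 2238 bases, the knockout peak of 181 bases (fold 2.73) lay inside a SiHa peak of 659 bases listed at a p of 0. ZNF622, a factor of large ribosomal subunit assembly, had its knockout peak (fold 7.03, p 4e-31) and its SiHa peak (p 1.9e-09) at 2.35 and 3.60% of its span, near the 5′ end. In ZNF24 both peaks lay near the middle, at 58.4 and 57.7%, and shared 121 bases. ZNF473, which takes part in histone pre-mRNA processing, had a shared place at 86.6% in knockout cells and 87.0% in SiHa cells. ZNF592, like ZNF687 a partner of ZMYND8, had a knockout peak that began at the first base of a SiHa peak with a p of 2.5e-37. The rest of the 22 were ZNF134, ZNF200, ZNF224, ZNF226, ZNF398, ZNF451, ZNF460, ZNF48, ZNF609, ZNF618, ZNF646, ZNF652, ZNF736, ZNF740, ZNF83, ZNF865 and ZNF91.

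**Figure D3:**
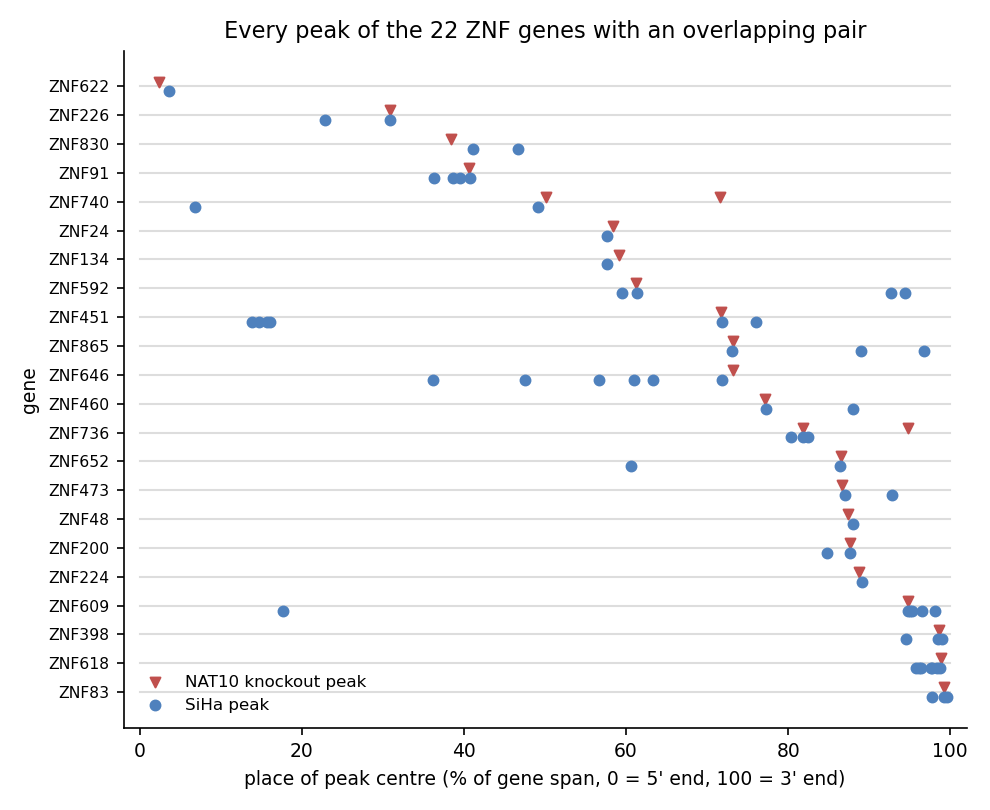
Place of every peak (x axis, % of the gene span from the 5′ to the 3′ end) in the 22 ZNF genes (y axis) in which a NAT10 knockout peak (red triangles, drawn above the line) overlaps a SiHa peak (blue circles, below it). Shared places run from 2.35% in ZNF622 to the last 1% in ZNF83, and ZNF451, ZNF609 and ZNF740 also have SiHa peaks far from the shared one.

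Along the gene, ZNF peaks stood in the later part of the span but less often at its very end than peaks of other genes. The place of a peak is its centre as a percentage of the RefSeq span, introns included, from the 5′ end at 0 to the 3′ end at 100. Its median was 73.2% for knockout peaks and 81.04% for SiHa peaks, beside 78.0 and 84.7% over the knockout and SiHa peaks of protein-coding genes. The last 10% of the span held 16 of 76 knockout peaks (21.1%, interval 12.5 to 31.9%, beside 33.2%) and 137 of 446 SiHa peaks (30.7%, interval 26.5 to 35.2%, beside 42.0%). The stretch from 60 to 90% held 32 knockout peaks (42.1%, interval 30.9 to 54.0%, beside 32.3%) and 209 SiHa peaks (46.9%, interval 42.2 to 51.6%, beside 30.02%). Exons were not at hand, so whether these peaks lie in the exon of the zinc fingers was not tested.

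In bases, ZNF knockout peaks were a median of 4477 from the 3′ end and ZNF SiHa peaks 4139, beside 5978 and 4296 for knockout and SiHa peaks of protein-coding genes. Peaks in several blocks, which cross a splice junction, made up 8 of 76 knockout peaks (10.5%, beside 32.5%) and 53 of 446 SiHa peaks (11.9%, beside 25.6%). The median width was 180 bases for ZNF knockout peaks and 181 for ZNF SiHa peaks, while the upper quartile was 181 against 270 bases and the longest peak 330 against 1020.

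**Figure D4:**
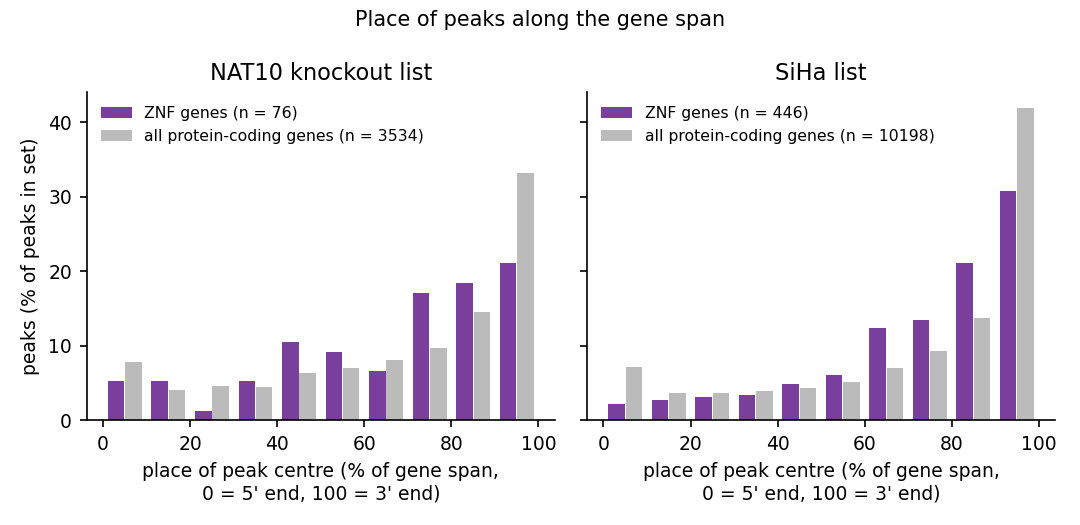
Share of peaks (y axis, % of peaks in the set) by place of the peak centre in steps of 10% of the gene span (x axis), with the NAT10 knockout list on the left and the SiHa list on the right. Purple bars are ZNF genes (76 and 446 peaks) and grey bars all protein-coding genes (3534 and 10198 peaks); the purple bars are higher from 70 to 90% in both panels and lower in the last step.

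Few ZNF peaks lay near the 5′ end. A centre within 500 bases of it was found for 4 of 76 knockout peaks (5.26%, beside 4.24%), in ZNF513, ZNF622, ZNF639 and ZNF841. The same was found for 0 of 446 SiHa peaks, which allows a share of up to 0.824%, beside 3.403%. The SiHa peaks of ZNF143 and ZNF740 shown above covered bases at the start of the span with their first block, but their centres lay 646.5 and 982 bases in. The first 10% of the span held 4 knockout peaks (5.26%, beside 7.81%) and 10 SiHa peaks (2.24%, beside 7.18%).

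Chromosome 19 held 246 of the 509 ZNF genes, and these carried peaks somewhat less often than ZNF genes elsewhere. On chromosome 19, 28 (11.4%, interval 7.70 to 16.0%) had a knockout peak and 105 (42.7%, interval 36.4 to 49.1%) had a SiHa peak. On the other chromosomes, 38 of 263 (14.4%, interval 10.4 to 19.3%) had a knockout peak and 130 (49.4%, interval 43.2 to 55.6%) a SiHa peak. These intervals overlap in either list. The 1205 other protein-coding genes of chromosome 19 had a knockout peak in 143 (11.9%) and a SiHa peak in 250 (20.7%).

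Chromosome 19 ZNF peaks were weaker in the SiHa list and stood in a narrower stretch of the gene. Their median −log10 p was 4.08, beside 6.05 for SiHa peaks of ZNF genes elsewhere. None of their 174 SiHa peaks lay in the first 10% of the span, which allows a share of up to 2.10%, and 104 (59.8%, interval 52.1 to 67.1%) lay from 60 to 90%. Elsewhere 10 of 272 (3.68%) lay in the first 10% and 105 (38.6%, interval 32.8 to 44.7%) from 60 to 90%. SiHa peaks per gene with a peak numbered 1.66 on chromosome 19 and 2.09 elsewhere.

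With runs of at least 5 ZNF genes and gaps of at most 500 kb, 10 clusters on chromosome 19 held 232 ZNF genes. Of these, 25 (10.8%, beside 14.2% of all protein-coding genes) had a knockout peak and 97 (41.8%, beside 27.7%) a SiHa peak. The same shares over all protein-coding genes stand beside the counts of each cluster below. The 14 ZNF genes of the chromosome outside the clusters included 3 with a knockout peak and 8 with a SiHa peak. Every cluster held a gene with a SiHa peak, and 3 held none with a knockout peak. With a deposited p below 1e-08 in both lists, 4 clusters held no gene with a knockout peak and 1, from ZNF302 to ZNF792, held none with a SiHa peak. In the full lists the largest of the 3 clusters without a knockout peak, from ZNF565 to ZNF573 (chr19:36182060-37779586), had a knockout peak in 0 of 26 genes, which allows a share of up to 13.2%, and a SiHa peak in 7. The 7 were ZNF146, ZNF260, ZNF567, ZNF570, ZNF793, ZNF850 and ZNF875. The other 2, from ZNF554 to ZNF77 and from ZNF302 to ZNF792, have only 5 genes each, of which 3 and 1 had a SiHa peak.

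The cluster from ZNF575 to ZNF180 (chr19:43530835-44500522) had the highest knockout share, with a knockout peak in 6 of 23 genes (26.1%, interval 10.2 to 48.4%) and a SiHa peak in 11. Its ZNF224 and ZNF226 had a shared place. The largest cluster, from ZNF264 to ZNF446 (chr19:57191500-58489533), had a knockout peak in 5 of 43 genes (11.6%) and a SiHa peak in 20 (46.5%). Among the 20 was ZNF274, which binds the 3′ ends of ZNF genes and brings SETDB1 there, with 1 SiHa peak (p 2e-11) at 98.8% of its span. The cluster from ZNF175 to ZNF331 (chr19:51571283-53580269) had 4 of 39 genes with a knockout peak and 18 with a SiHa peak, and its 37 SiHa peaks were the most of any cluster. A further 8 of its genes were touched only by identifiers without a name, as were 5 in the cluster from ZNF264 to ZNF446, 2 in that from ZNF575 to ZNF180 and 1 in that from ZNF101 to ZNF254, so peaks of these genes are not in the counts.

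The cluster from ZNF101 to ZNF254 (chr19:19668153-24129968) had a knockout peak in 3 of 37 genes and a SiHa peak in 12. It holds ZNF91, which represses SVA retrotransposons and had 1 knockout peak (fold 25.6) and 4 SiHa peaks, all with p of at least 0.0066. The cluster from ZNF653 to ZNF791 had a knockout peak in 2 of 25 genes, ZNF44 and ZNF799, and a SiHa peak in 13. The cluster from ZNF414 to ZNF846 had 3 of 13 genes with a knockout peak and 4 with a SiHa peak, and ZNF121 alone had both, with 1 and 4 peaks. The cluster from ZNF628 to ZNF835 had 2 of 16 genes with a knockout peak and 8 with a SiHa peak. The genes with most peaks in their cluster also included ZNF555, ZNF627, ZNF792, ZNF808, ZNF865 and ZNF550, with 2 to 5 peaks over both lists.

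**Figure D5:**
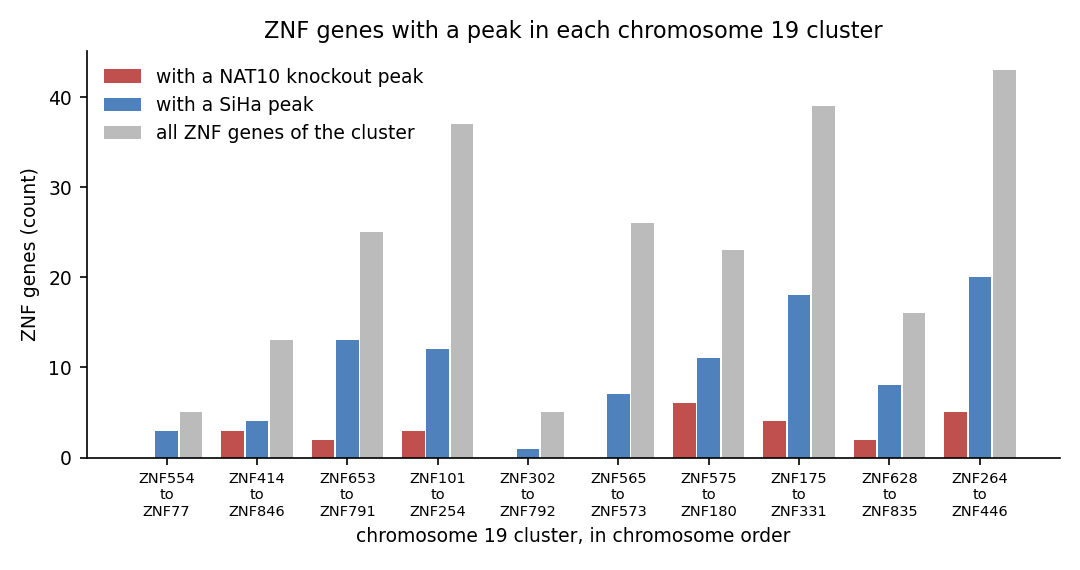
Number of ZNF genes (y axis, count) with a NAT10 knockout peak (red), with a SiHa peak (blue) and in all (grey) in each of the 10 chromosome 19 clusters, named by their first and last gene in chromosome order (x axis). The blue bar is the higher of the pair in all 10, and 3 clusters have no red bar.

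Pooled, the other families of C2H2 proteins had a SiHa share close to that of the ZNF genes, but the single families ranged widely. Of 172 genes of these families, 35 (20.3%, interval 14.6 to 27.1%) had a knockout peak and 82 (47.7%, interval 40.02 to 55.4%) had a SiHa peak. The knockout share was 13.0% of ZNF genes and 14.2% of all protein-coding genes. The SiHa share was 46.2% of ZNF genes and 27.7% of all protein-coding genes. Among the ZBTB genes, 12 of 41 had a knockout peak and 30 a SiHa peak; among the ZSCAN genes, 4 of 21 and 11; among the KLF genes, 1 of 18 and 9. All 7 ZKSCAN genes had a SiHa peak, and 2 had a knockout peak. SiHa shares below that of the ZNF genes were found for the ZFP genes, with 3 of 19 in the knockout list and 7 (36.8%) in the SiHa list. The PRDM genes had 2 of 15 in the knockout list and 3 (20.0%) in the SiHa list. The SP genes had a knockout peak in 4 of 13 and a SiHa peak in 2, and the EGR genes in 1 of 4 and in 0. The list was made by symbol and also takes in a few proteins of another kind, such as SP110, SP140 and ZFP36. The 4 SP genes with a knockout peak were SP1, SP4, SP110 and SP140. Neither SP110 nor SP140 had a SiHa peak, so the SP counts do not describe C2H2 proteins alone.

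A list of 24 corepressor and heterochromatin genes was drawn up by hand, and not all of them are tied to KRAB proteins alone. Of these, 6 (25%, interval 9.77 to 46.7%, beside 14.2% of all protein-coding genes) had a knockout peak. A SiHa peak was present in 14 (58.3%, interval 36.6 to 77.9%, beside 27.7%). TRIM28 had none in either list. SETDB1 had no knockout peak and 2 SiHa peaks (lowest p 5e-71). Of the genes for the heterochromatin proteins HP1, CBX1 had 1 knockout peak (fold 113) and no SiHa peak, CBX3 had 1 knockout and 1 SiHa peak, and CBX5 had no knockout peak and 4 SiHa peaks. TASOR of the HUSH complex had 1 knockout and 2 SiHa peaks, and its partner MPHOSPH8 had 1 SiHa peak and no knockout peak.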

How the data were processed

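The deposited lists have 1 line per peak: its strand, its blocks (1 or more) and an Ensembl identifier. The authors give a p-value per peak in both lists, and in the knockout list also log10 of p and of the false discovery rate (scores) and a fold enrichment (a ratio), per the file headers. Per the submitters' processing notes, FastQC 0.11.7 and GRCh38 (hg38) were used; the aligner, the peak caller, the annotation and the pooling of replicates were each not given in the sources used here. Depth is unknown, and 0 other columns of sample values were present.

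One repeated line and 5 peaks off the chromosomes were dropped. Both lists hold a second sorted run of peaks (111 knockout and 320 SiHa peaks), kept as deposited. Identifiers could not be matched through a table, so an identifier took the name of the 1 RefSeq gene span it touched alone on its strand. That span had to hold at least 90% of its bases and have no rival. The reference gave a strand for 430 of the 509 ZNF genes, and a span without one was matched to peaks of either strand. Of 9046 identifiers 7300 were named, 6775 as protein-coding. As a check, names made without strand lay on the peak's strand in 4880 of 4907 cases.

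Genes named are the 10 with most SiHa peaks, 10 others with the lowest SiHa p, 10 with the highest knockout fold, 6 with most knockout peaks, 15 with a shared place, and the top gene of each cluster; other names were added after values were seen. A planned choice by zinc finger motifs was not run, as no proteins were at hand. The members and lists were chosen with earlier results of these data known. Python 3.11.15, pandas 2.3.3, numpy 2.4.6 and scipy 1.17.1 were used, and the counting was tested on simulated peaks.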

Additional observations from a re-analysis of the deposited data

How the results depend on the processing

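Of 86 values of 13 results under 12 alternatives, 59 were labelled as unmoved and 27 as moved, and no direction could be tested. The rule behind these labels is not given here, and an unmoved label does not mean a small change. With knockout peaks at a false discovery rate up to 0.05, fewer ZNF genes had a knockout peak, also on chromosome 19. Both counts were still labelled as unmoved. No paired analysis was possible because the lists carry no replicates. With a deposited p below 1e-08 in both lists, ZNF genes with a knockout peak numbered 20 and with a SiHa peak 119. Of the 119, 89.1% had no knockout peak, beside 83.7% over all protein-coding genes. In that setting 0% of genes had 2 or more knockout peaks and 26.1% had 2 or more SiHa peaks, chromosome 19 had 8 and 47 genes with a knockout and a SiHa peak, and its clusters had 7 and 43. With the SiHa list reduced, 96 genes had a SiHa peak (35 on chromosome 19, 32 in clusters), 21.9% had 2 or more, and 13.2% of knockout and 8.53% of SiHa peaks were overlapped. Without the knockout peaks with a fold on the common step, a setting added after the data were seen, 24 genes had a knockout peak (8 on chromosome 19, all 8 in clusters). Then 91.9% of SiHa genes had no knockout peak, beside 85.1% over all protein-coding genes. In that setting 4.17% of genes had 2 or more knockout peaks and 2.47% of SiHa peaks were overlapped. With knockout peaks at a false discovery rate up to 0.05, 84.3% of SiHa genes had no knockout peak, beside 75.9% over all protein-coding genes. The ZNF share was 90.6% when both lists required an overlapping pair, which 22 of 235 ZNF genes with a SiHa peak had. Over all protein-coding genes, 642 of 5558 had such a pair. Reciprocal overlap of 50% gave 15.8% of knockout and 2.69% of SiHa peaks. Over all 509 genes, 1.96% had 2 or more knockout peaks and 24.2% had 2 or more SiHa peaks. Of all 20050 protein-coding genes, 544 had 2 or more knockout peaks and 2416 had 2 or more SiHa peaks. Not run were names through an identifier table, and places along the transcript without introns, since no exons were at hand.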
